A study of Mus musculus with 6 samples.

Results

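Cytosolic and mitochondrial heat shock proteins are chaperones, proteins that bind unfolded or newly made proteins and help them to fold. The 10 genes considered here were Hspa1a, Hspa1b, Hspa8, Dnajb1, Hsph1, Hsp90aa1, Hsp90ab1, Hspb1, Hspd1 and Hspe1. Their members on the array were all probe sets whose platform gene symbol was exactly one of these names. There were 22 such probe sets, for 9 of the 10 genes, among 45037 probe sets tested, 34945 of which carried a single symbol, for 18193 genes in all. No probe set carried the symbol Hsp90ab1, which was not analysed here. Of the 22 probe sets, 20 had a mean at or above 6.58, the median of all probe sets on the log2 scale, and the other 2, both of Hsp90aa1, were dim.

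The samples were mucosa from the terminal ileum, where the small intestine ends, of female 129S6 mice aged 3 months. The groups were wt and duoxa-/- littermates that lived in the same cage. The Duoxa genes encode factors that the dual oxidases, enzymes that release hydrogen peroxide, need in order to mature. There were 3 cages, each of them 1 litter, and RNA of 2 to 3 animals per genotype was pooled in each cage, giving 3 wt and 3 duoxa-/- pools on 6 arrays. Strain, sex, age and tissue were common to all pools, and how the allele was made was not given in the sources used here. With 1 pool per cage and genotype, p-values measure the spread between pools, and a difference within a single cage has no replicate. Precision is limited by there being only 6 arrays. In bulk tissue, fewer cells of a type and less RNA per cell cannot be told apart.

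The 6 arrays had medians of 6.55 to 6.60 and correlated with one another across probe sets with r of 0.994 to 0.998. Duoxa2, the gene by which the labels could be checked, had log2 values of 8.81, 8.36 and 7.24 in the wt pools of cages 1, 2 and 3 and of 5.90, 5.55 and 5.92 in the duoxa-/- pools of the same cages. It was lower in duoxa-/- in every cage. Its mean difference of -2.34 (SE 0.33) did not pass the test between genotypes (limma adjusted p = 0.794). A missing call is therefore possible even for a difference of this size. Duoxa1, which was dim, had 6.41, 6.26 and 6.25 in wt and 6.22, 5.92 and 6.33 in duoxa-/-, lower in cages 1 and 2 and higher in cage 3, and at this level it gives no check. Of 6 epithelial markers (Epcam, Cdh1, Krt8, Krt18, Krt19 and Cldn7) all 6 were above the median of the array, with a mean of 13.74 to 13.79 in the 6 pools. The 10 smooth muscle markers were all above it as well, with a mean of 11.18 to 11.93. No probe set of the array passed the limma test between genotypes at an adjusted p under 0.05 (0%), with or without cage as a block (0%). At an unadjusted p under 0.05, 1507 probe sets were higher and 1185 lower in duoxa-/-.

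Cells make inducible heat shock proteins in bursts when proteins unfold, under heat, oxidants, hypoxia or handling stress. The transcription factor HSF1 then binds heat shock elements, repeats of the unit GAA and its reverse complement TTC, before the start of these genes. Hspa1a and Hspa1b are the strongly inducible HSP70 chaperones, Dnajb1 is the J-domain partner that delivers clients to HSP70, and Hsph1 is the exchange factor that resets it. Hspa8 and Hsp90aa1 serve the cytosol, Hspb1 is a small heat shock protein that binds the actin cytoskeleton and is abundant in muscle, and Hspd1 with Hspe1 forms the folding chamber of mitochondria.

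The upstream sequences are shown to describe the genes, and no link between them and the values of the pools was tested. RefSeq starts (build GRCm38.p6) were given for 7 of the 10 genes, as 10 windows of 250 bases before a start. A pair of facing units was searched as GAANNTTC or TTCNNGAA, which read the same on both strands. At least 1 match lay in 7 of these 10 windows, which belong to 6 of the 7 genes, and in 12.8% of all 32851 windows of the same length. The windows are not independent, as those of Hsph1 hold the same match, Hspd1 and Hspe1 share theirs, and Hspa1a and Hspa1b are close copies. Both Dnajb1 windows and 1 of 2 Hspd1 windows, that of the start at 55088243, held 0 matches. Capitals mark the matched units, the sequences are written 5′ to 3′ on the strand of the gene, and coordinates are those of the printed bases.
Hspa1a, chr17:34972242-34972271, minus strand: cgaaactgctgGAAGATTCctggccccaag
Hspa1b, chr17:34959324-34959353, minus strand: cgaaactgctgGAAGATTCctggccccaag
Hsph1, chr5:149636351-149636380, minus strand: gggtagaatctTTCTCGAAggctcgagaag
Hspb1, chr5:135887791-135887820, plus strand: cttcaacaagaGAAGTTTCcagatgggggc
Hspb1, chr5:135887811-135887840, plus strand: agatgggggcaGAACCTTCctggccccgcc
Hspd1, chr1:55088053-55088082, minus strand: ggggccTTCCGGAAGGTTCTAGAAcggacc
Hspe1, chr1:55088053-55088082, plus strand: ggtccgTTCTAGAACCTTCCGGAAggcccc
The matches of Hspa1a and Hspa1b lay 104 to 97 bases before their starts, and those of Hspb1 117 to 110 and 97 to 90 bases before. The match of Hsph1 lay 33 to 26 bases before one of its starts and 54 to 47 before the other. Hspd1 and Hspe1 are neighbours read in opposite directions, and their capitals are the same 18 bases, 144 to 127 bases before a start of Hspd1 and 89 to 72 before that of Hspe1. Only these windows held 3 alternating units (GAANNTTCNNGAA or TTCNNGAANNTTC, which contain the shorter motifs), present in 0.466% of all windows. A match is a description of these letters, not evidence of binding.

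Hspa1a (chr17:34969359-34972156) and Hspa1b (chr17:34956429-34959238) varied widely over the 6 pools, more so among the wt pools (SD 0.93 to 1.18 over their 4 probe sets) than among the duoxa-/- pools (SD 0.39 to 0.53). This difference in spread, from 3 pools a group, was not tested. It was the other way for Hspb1, with SDs of 0.26 in wt and 0.48 in duoxa-/- for 1425964_x_at. Hspa1a had log2 values of 8.40, 7.96 and 10.12 in the wt pools of cages 1, 2 and 3. The duoxa-/- pools of the same cages had 8.79, 9.78 and 9.62. The wt pools of cages 2 and 3 were therefore the lowest and the highest of all 6, with the 3 duoxa-/- pools between them, so the groups overlapped. The mean was 8.83 ± 1.14 in wt and 9.40 ± 0.53 in duoxa-/- (SD, n = 3 pools each), a difference of 0.57 (SE 0.50, 95% interval -0.56 to 1.71) that did not pass the test (limma adjusted p = 0.833).

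The 3 probe sets of Hspa1b followed the same order of pools. For 1427126_at the wt pools of cages 1, 2 and 3 had 8.84, 7.94 and 10.27, and the duoxa-/- pools 9.07, 10.10 and 9.59. From the highest to the lowest pool the order was wt cage 3, duoxa-/- cage 2, duoxa-/- cage 3, duoxa-/- cage 1, wt cage 1 and wt cage 2, and it was the same for all 4 probe sets of Hspa1a and Hspa1b. The mean difference of Hspa1b lay between 0.48 and 0.57 over its probe sets, with SEs of 0.40 to 0.51 and limma adjusted p of 0.825 to 0.851. Within cages, the 4 probe sets were higher in duoxa-/- by 0.20 to 0.39 in cage 1 and by 1.67 to 2.17 (3.18-fold to 4.50-fold) in cage 2. In cage 3 they were lower in duoxa-/-, by 1.39-fold to 1.60-fold, with differences from -0.68 to -0.47.

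Between the wt pools alone, cage 3 exceeded cage 2 by 3.56-fold to 5.05-fold over these 4 probe sets. These are the lowest and the highest pool of the 4, so the ratio is their range. Their SD over the 6 pools, 0.69 to 0.87, was larger than that of 99.83% to 99.92% of all probe sets, whose median SD was 0.127. The F-test between cages, with genotype in the fit, did not call them (limma adjusted p = 0.886), and the 2 pools of cage 2 stood far apart. The mean difference between genotypes moved with single pools. Without the wt pool of cage 2 it was 0.14 for Hspa1a and 0.04 for 1427126_at, and without that of cage 3 it was 1.22 and 1.20. Leaving out duoxa-/- cage 2 gave 0.38 and 0.32, and leaving out both pools of cage 2 gave -0.05 and -0.22.

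The pair cannot be fully told apart on this array, because their coding sequences are nearly the same and probes may read both. Their upstream sequences are close copies too, with 247 of 250 bases (98.8%) identical and the substitutions T44C, C47T and G249T. These give the base of Hspa1b, the position from the 5′ end of the window, and the base of Hspa1a. The 4 probe sets are therefore not independent measurements. The last 200 bases before each start are shown for this reason, with the heat shock unit pair in capitals.
Hspa1b, chr17:34959239-34959438, minus strand: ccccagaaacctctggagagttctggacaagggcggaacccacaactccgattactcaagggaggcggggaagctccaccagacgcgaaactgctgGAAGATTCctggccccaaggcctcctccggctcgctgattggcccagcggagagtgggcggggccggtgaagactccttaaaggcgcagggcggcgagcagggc
Hspa1a, chr17:34972157-34972356, minus strand: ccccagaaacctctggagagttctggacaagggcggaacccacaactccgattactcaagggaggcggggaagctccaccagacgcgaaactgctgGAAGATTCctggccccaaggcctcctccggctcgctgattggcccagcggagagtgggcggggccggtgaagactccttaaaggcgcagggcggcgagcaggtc

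**Figure D1:**
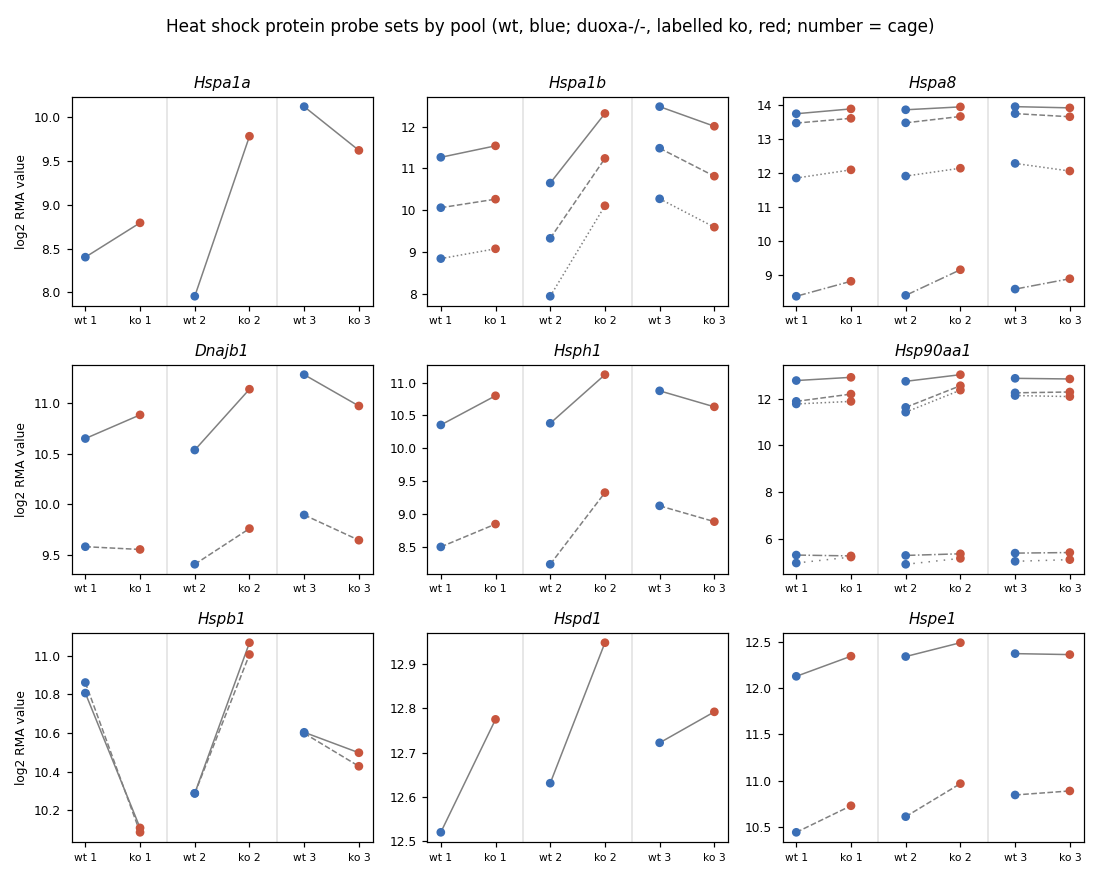
Log2 values (vertical axes, scaled per panel) of the 22 probe sets of 9 heat shock genes in the 6 pools (horizontal axes: wt in blue and duoxa-/-, written ko, in red, for cages 1 to 3); each line joins the pools of a cage for 1 probe set. Hspa1a and Hspa1b were lowest in the wt pool of cage 2 and highest in that of cage 3, while Hspd1 was higher in duoxa-/- in all 3 cages.

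The co-chaperones of inducible HSP70 had smaller differences and an order of pools that was similar in part and varied between probe sets. Dnajb1 (chr8:83608175-83612653) had, for 1416755_at, 10.65, 10.54 and 11.28 in the wt pools of cages 1 to 3 and 10.89, 11.14 and 10.97 in the duoxa-/- pools. Its lowest and highest pools were again wt cage 2 and wt cage 3, and the groups overlapped. The difference was 0.18 (SE 0.18; limma adjusted p = 0.858), made of 0.23, 0.60 and -0.31 in cages 1, 2 and 3. Leaving out the wt pool of cage 1, 2 or 3 gave 0.09, 0.03 or 0.41, and leaving out duoxa-/- cage 2 gave 0.11. Its other probe set, 1416756_at, gave 0.03 (SE 0.13, limma adjusted p = 0.974), a value that lay on either side of 0 as pools were left out. The differences of 1416756_at in cages 1, 2 and 3 were -0.03, 0.35 and -0.25.

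Hsph1 (chr5:149616843-149636498), the exchange factor, had for 1423566_a_at 8.50, 8.23 and 9.12 in wt and 8.84, 9.32 and 8.88 in duoxa-/- in cages 1, 2 and 3. The duoxa-/- pool of cage 2 was the highest, the wt pool of cage 2 the lowest, and the groups overlapped. The difference within cage 2 was 1.09, or 2.13-fold, against 0.35 in cage 1 and -0.24 in cage 3. Over the cages it was 0.40 (SE 0.22; limma adjusted p = 0.795), and 0.31 (SE 0.17) for the second probe set, 1425993_a_at. For 1423566_a_at it was 0.21 or 0.25 when the wt or the duoxa-/- pool of cage 2 was left out, 0.05 when both were, and 0.65 when the wt pool of cage 3 was. For 1425993_a_at it was 0.18 when duoxa-/- cage 2 was left out, 0.10 when both pools of that cage were, and 0.48 when wt cage 3 was. The lowest pool of 1425993_a_at was wt cage 1 (10.35, against 10.38 in wt cage 2) and the highest duoxa-/- cage 2 (11.12). A 2-fold or larger difference in cage 2, with duoxa-/- higher, was found for 5 of the 22 probe sets (the 4 of Hspa1a and Hspa1b and 1 of Hsph1) and for 0.424% of all probe sets. This limit, and the other counts by single pools below, were chosen after the values were seen.

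Hspa8 (chr9:40801276-40805202), the HSP70 that cells make without stress, differed between its probe sets. The 3 probe sets 1455789_x_at, 1420623_x_at and 1420622_a_at gave differences of 0.06 to 0.08 (SEs 0.08 to 0.12) with overlapping groups, and each was highest in the wt pool of cage 3. The fourth, 1431182_at, had 8.37, 8.40 and 8.58 in the wt pools of cages 1, 2 and 3 and 8.81, 9.15 and 8.89 in the duoxa-/- pools. All 3 duoxa-/- pools lay above all 3 wt pools. The mean was 8.45 ± 0.11 in wt and 8.95 ± 0.18 in duoxa-/- (SD, n = 3 pools each). This difference of 0.50 (SE 0.11, 95% interval 0.25 to 0.75) had the smallest unadjusted p of the 22 probe sets in limma, 0.0016, but did not pass after adjustment over all probe sets (adjusted p = 0.794). Leaving out 1 pool at a time kept it between 0.40 and 0.57. Which transcript of Hspa8 this probe set reads was not analysed here.

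Hsp90aa1 (chr12:110691036-110696395), the inducible form of HSP90, matures kinases and steroid receptors. For 1426645_at the wt pools of cages 1, 2 and 3 had 11.89, 11.63 and 12.25, and the duoxa-/- pools 12.20, 12.56 and 12.29. The duoxa-/- pool of cage 1 lay just below the wt pool of cage 3, so that the groups overlapped by that pair alone. The difference was 0.42 (SE 0.16, 95% interval 0.06 to 0.79; limma adjusted p = 0.794), with 0.31, 0.93 and 0.04 in the 3 cages. It was 0.28 without the wt pool of cage 2 and 0.17 without both pools of that cage. The probe sets 1437497_a_at and 1438902_a_at gave 0.34 (SE 0.18) and 0.13 (SE 0.09), with 0.94 and 0.28 in cage 2 and -0.04 and -0.03 in cage 3. Without both pools of cage 2 they gave 0.03 and 0.05. Of the 2 dim probe sets, 1433251_at gave 0.02 and 1441827_x_at 0.19 (SE 0.08; limma adjusted p = 0.794), the latter with groups that did not overlap.

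**Figure D2:**
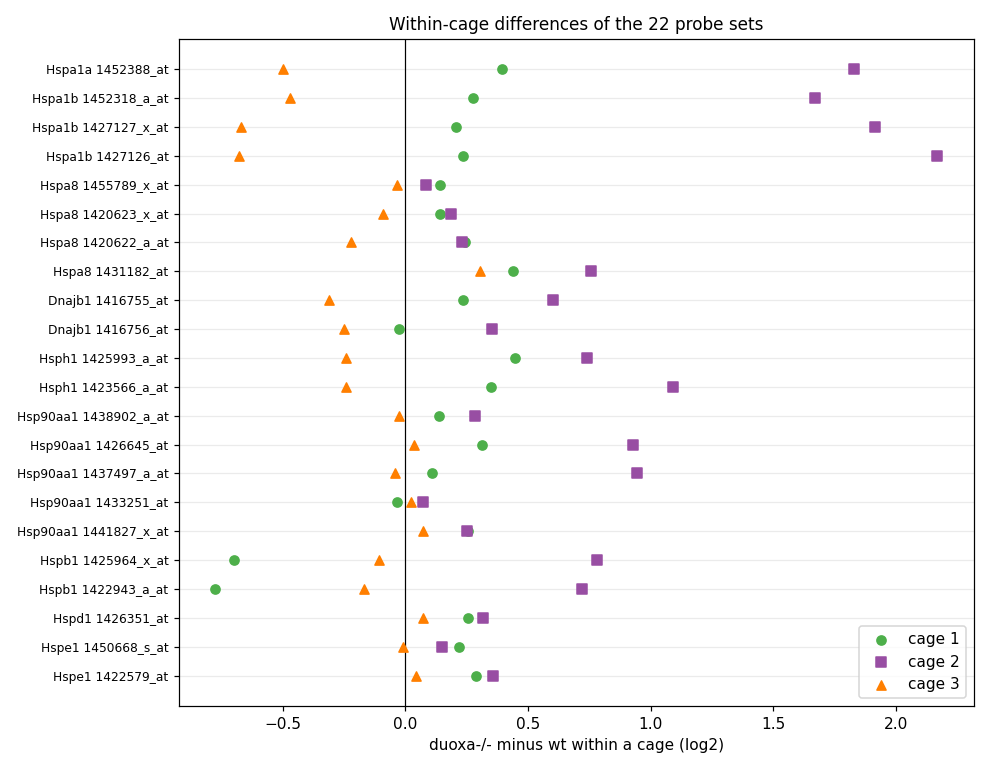
Differences between duoxa-/- and wt within each cage (horizontal axis, log2) for the 22 probe sets (vertical axis), with 1 symbol per cage. Cage 2 values were above 0 for all 22 probe sets and largest for Hspa1a and Hspa1b (1.67 to 2.17), whereas 16 of 22 were below 0 in cage 3.

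The mitochondrial chaperonin had small differences, positive in mean for all its probe sets. Hspd1 (chr1:55077833-55088243), the barrel of the chamber, had 12.52, 12.63 and 12.72 in the wt pools of cages 1, 2 and 3 and 12.77, 12.95 and 12.79 in the duoxa-/- pools. The groups did not overlap. Its mean was 12.62 ± 0.10 in wt and 12.84 ± 0.10 in duoxa-/- (SD, n = 3 pools each), a difference of 0.21 (SE 0.09, 95% interval 0.01 to 0.42) that did not pass (limma adjusted p = 0.794). The differences in cages 1, 2 and 3 were 0.25, 0.32 and 0.07.

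Hspe1 (chr1:55088148-55091317), the lid of the chamber, shares its upstream region with Hspd1, as the sequences above show. Its probe set 1422579_at had 10.44, 10.61 and 10.85 in wt and 10.73, 10.97 and 10.89 in duoxa-/-. Each duoxa-/- pool was above the wt pool of its cage, but the groups overlapped. The difference was 0.23 (SE 0.12; limma adjusted p = 0.794), or 0.13 without the wt pool of cage 1, and for 1450668_s_at it was 0.12 (SE 0.09; limma adjusted p = 0.823), with -0.01 in cage 3. For both genes the lowest pool was wt cage 1 and the highest duoxa-/- cage 2, an order unlike that of Hspa1a and Hspa1b, whose lowest and highest pools were both wt.

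Hspb1 (chr5:135887919-135889563) differed in opposite directions between cages. Its probe set 1425964_x_at had 10.81, 10.29 and 10.60 in wt and 10.11, 11.07 and 10.50 in duoxa-/- in cages 1, 2 and 3. The duoxa-/- pools were thus both the lowest, in cage 1, and the highest, in cage 2. The differences were -0.70, 0.78 and -0.11, with a mean of -0.01 (SE 0.23; limma adjusted p = 0.996), and 1422943_a_at gave -0.78, 0.72 and -0.17. The median of smooth muscle markers differed in the same direction in each cage, by less in cage 2. These markers were highest in wt cage 1, not in duoxa-/- cage 2. All 10 of 10 were lower in duoxa-/- in cage 1, 10 of 10 were higher in cage 2 and 3 of 10 were higher in cage 3, with median differences of -0.78, 0.18 and -0.10. Centred on the 6 pools, their mean was 0.43, -0.15 and 0.03 in the wt pools of cages 1, 2 and 3 and -0.32, 0.10 and -0.08 in the duoxa-/- pools. Among them Des, a muscle intermediate filament, differed by -1.12 in cage 1. None of these markers was near the floor of the array, and the part of muscle tissue in the Hspb1 values was not tested. Median differences in cages 1, 2 and 3 were -0.26, 0.16 and 0.04 for fibroblast markers. They were -0.37, -0.02 and 0.04 for enteric neuron and glia markers, and -0.03, 0.25 and -0.13 for Paneth cell markers. Hspb6, a small heat shock protein of muscle, differed by -1.22, 0.13 and -0.31 in cages 1, 2 and 3.

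Over all 22 probe sets, 20 had a mean difference above 0 and 2, both of Hspb1, below it. The median was 0.203, against 0.001 for all probe sets. None passed the limma test (adjusted p 0.794 to 0.996, or 0.740 to 0.996 with cage as a replicate block). An unadjusted p under 0.05 was found for 4 of them, 1 each of Hspa8 and Hspd1 and 2 of Hsp90aa1, and for 5.98% of all probe sets. For 3 of the 22, all duoxa-/- pools lay above all wt pools, against 6.25% of all probe sets. The same probes or neighbouring ones can read 1 gene, so these counts are not of independent measurements.

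The differences changed between cages. In cage 1, 18 of the 22 probe sets were higher in duoxa-/- (median 0.24; 50.4% of all probe sets were higher). All 22 were higher in cage 2 (median 0.66; 49.0% of all), and 6 in cage 3 (median -0.10; 51.6% of all). Quantile normalization gave 19, 22 and 7, and median centring 18, 22 and 6. Higher values in all 3 cages were found for 5 of 22, of Hspa8, Hsp90aa1, Hspd1 and Hspe1, against 15.3% of all. Lower values in all 3 were found for 0, against 14.3%. The brightest probe sets of Hspa8, Hsp90aa1 and Hspe1 had -0.04, -0.03 and -0.01 in cage 3. With 1 probe set per gene, only Hspd1 was higher in all 3 cages, against 13.5% of all genes. The pattern of Hspa1a, higher in cages 1 and 2 and lower in cage 3, was shared by 13 of 22 probe sets and by 11% of all. The wt pool of cage 2 was the lowest of the 6 for 11 of 22 probe sets, against 18.7% of all, and the duoxa-/- pool of cage 2 was the highest for 11, against 18%. No difference between cages was tested with replicates within a genotype. The F-test between cages called 0 of the 22 (limma adjusted p 0.886 to 0.991) and 1 of all probe sets (0.00222%), and at an unadjusted p under 0.05 it found 0 of the 22 and 5.55% of all.

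**Figure D3:**
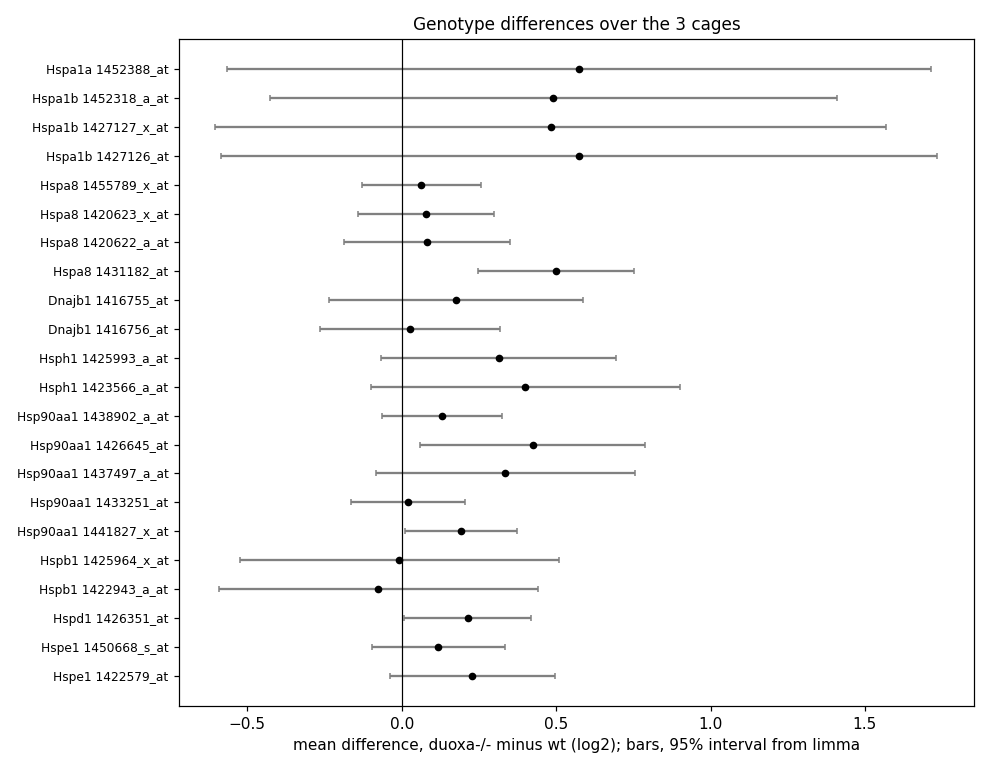
Mean difference between duoxa-/- and wt (horizontal axis, log2; points) with 95% confidence intervals from limma (bars; 3 pools a group) for the 22 probe sets (vertical axis). The intervals of Hspa1a and Hspa1b are the widest, from about -0.56 to 1.71 for Hspa1a, and those of 1 probe set each of Hspa8 and Hspd1 and 2 of Hsp90aa1 lie above 0, before adjustment over all probe sets.

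The other genes of the pathway were taken from 10 lists with 135 measured genes, each read by its brightest probe set. None passed the limma test, and at an unadjusted p under 0.05 there were 3 higher and 4 lower. Of 12 measured HSF1 targets outside the 10 genes, 11 were higher in duoxa-/- in mean (median 0.08), 7 in cage 1, all 12 in cage 2 and 5 in cage 3. Of all genes, 46.1% were higher in mean, and of the 11608 genes at or above the median level 52.4% were, with 58.2%, 40.9% and 54.2% higher in cages 1, 2 and 3. Dnaja1, a J-domain partner of HSP70, had differences of 0.25, 0.50 and -0.10 in cages 1, 2 and 3. Ahsa1, the activator of the HSP90 ATPase, had 0.23, 0.43 and -0.07, and Cacybp 0.29, 0.41 and -0.10. Their means were 0.22 (SE 0.13), 0.20 (SE 0.11) and 0.20 (SE 0.11), with limma adjusted p of 0.795.

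Of 5 heat shock factors and regulators measured, 3 were higher and 2 lower (median 0.03), and 4 were dim. Hsf1, the gene of HSF1, was listed but was not among those measured, so these counts do not include it. The dim factors Hsf5, Hsf4 and Hsf2 had differences of -0.18 (SE 0.10), -0.09 (SE 0.10) and 0.13 (SE 0.11). Co-chaperones help both machines to take up and release clients. Of 12 for HSP90, 6 were higher and 6 lower (median 0.02), with Ppp5c, a phosphatase bound to HSP90, at -0.24 (SE 0.08) and Sgta, which also binds HSP70, at -0.16 (SE 0.08). Of 21 for HSP70, 13 were higher and 8 lower (median 0.03), with Bag6 at -0.31 (SE 0.10) and Hspa4, a relative of Hsph1, at 0.16 (SE 0.08). Of 15 other HSP70 and small heat shock proteins, 5 were higher and 10 lower (median -0.07), 6 of the 15 being dim. Hspa12a was at -0.26 (SE 0.10), Hspa14, which works with ribosomes, at 0.24 (SE 0.10) and Hspb6 at -0.47 (SE 0.25).

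Folding machines related to Hspd1 and Hspe1 had small positive medians. All 15 genes of the cytosolic chaperonin and prefoldin, which fold actin and tubulin, were higher in mean (median 0.12), 8 of them in all 3 cages, where 17.2% of genes at or above the median level were. Their medians in cages 1, 2 and 3 were 0.26, 0.11 and 0.01, and Cct8, a chaperonin subunit, had the cage differences 0.34, 0.29 and 0.05. The subunits Cct3 and Cct7 had means of 0.18 (SE 0.09) and 0.19 (SE 0.09). Of 15 genes for mitochondrial folding and proteolysis, 13 were higher (median 0.07), with Hspa9, the mitochondrial HSP70, at 0.18 (SE 0.08), Dnaja3, its J-domain partner, at 0.18 (SE 0.08) and Yme1l1, an inner membrane protease, at 0.24 (SE 0.11). Of the proliferation markers, 8 of 9 were higher in mean. Their median differences of 0.35, 0.14 and 0.03 fell from cage 1 to cage 3, as for chaperonin and prefoldin. Over the pools, both lists were lowest in wt cage 1 and highest in duoxa-/- cage 2, with opposite signs in some other pools. Centred on the 6 pools, proliferation markers had means of 0.09, -0.15 and -0.09 in wt cage 2, wt cage 3 and duoxa-/- cage 3. Chaperonin and prefoldin had -0.06, 0.05 and 0.04 in the same pools, and in the other pools the signs were alike. The part of proliferation was not tested.

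Other stress programmes were set beside them. Of 17 chaperones and stress genes of the endoplasmic reticulum, 14 were higher (median 0.13; 0.18, 0.24 and -0.075 in cages 1, 2 and 3), with the disulfide isomerases Pdia6 and Pdia3 at 0.25 (SE 0.09) and 0.18 (SE 0.08) and Creld2 at 0.32 (SE 0.16). Of 21 immediate early genes, which respond within minutes to stimulation or handling, 14 were higher (median 0.07; 0.12, 0.14 and -0.01 in the 3 cages). Egr1 had differences of 1.57, 0.56 and 0.34, and Fos 0.18, 0.61 and -0.01. Zfp36, which speeds the decay of messenger RNA, had -0.21, -0.22 and -0.47. The mean of the list was highest in the duoxa-/- pool of cage 1 (centred 0.17), where Hspa1a and Hspa1b were not highest. It was lowest in the wt pool of cage 2 (-0.12), as for Hspa1a and Hspa1b, but near that of duoxa-/- cage 3 (-0.09). Of the 21 genes, 7 were lowest in wt cage 2, against 12.1% of all genes. Among them, Btg2 had 10.37 there and 11.28 to 11.7 in the other pools, so which of these pools is lowest rests on this gene. In cage 1 the difference was 1.57 for Egr1 and 1.17 for Egr2, a dim gene named after its values were seen. Of 12 oxidative and proteotoxic stress genes, 2 were higher and 10 lower (median -0.10), with Hmox1, heme oxygenase, dim and at -0.22 (SE 0.08), Srxn1, which restores peroxiredoxins, at -0.09 (SE 0.08) and Trib3 at -0.14 (SE 0.13).

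**Figure D4:**
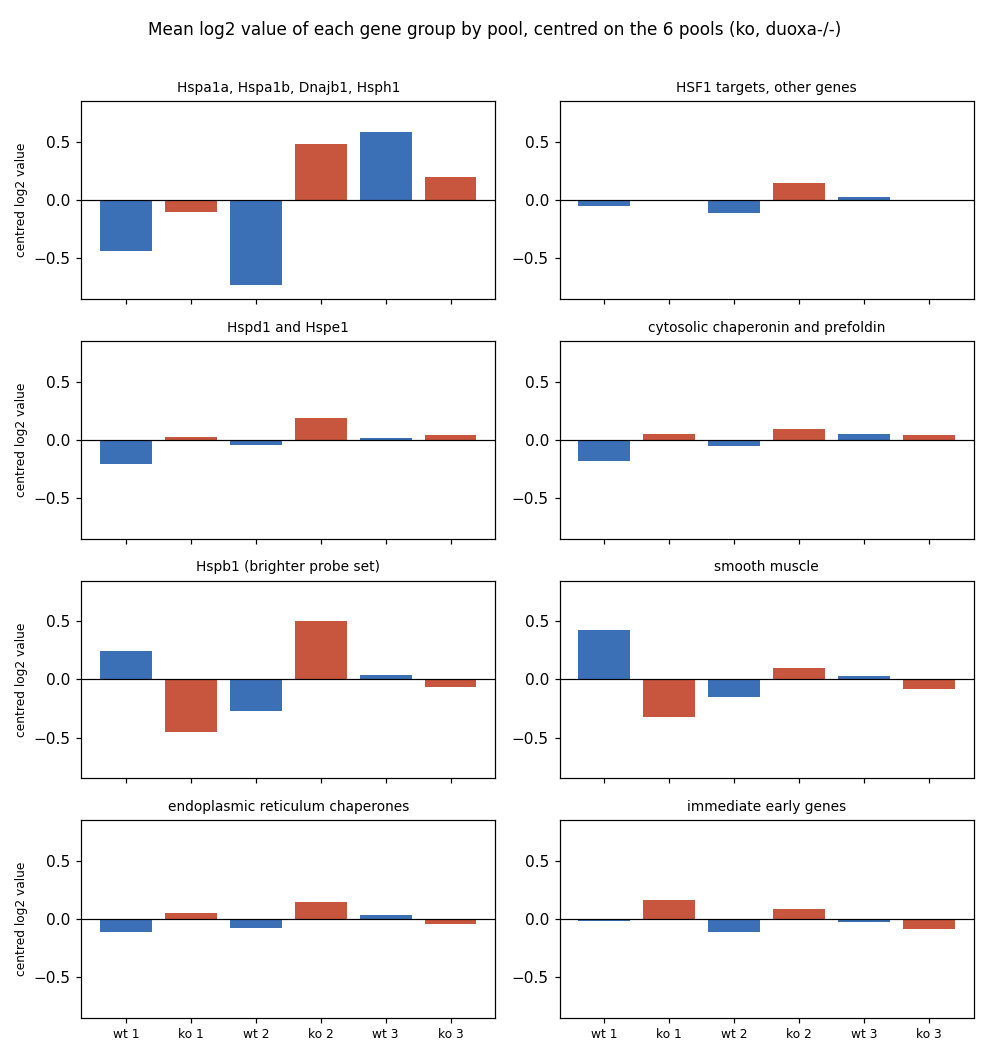
Mean log2 value of 8 groups of genes in each pool, centred on the mean of the 6 pools (vertical axes, 1 scale for all panels; horizontal axes, wt in blue and duoxa-/-, written ko, in red, for cages 1 to 3; no error bars, as each pool is 1 array). The mean of Hspa1a, Hspa1b, Dnajb1 and Hsph1, in which Hspa1a and Hspa1b weigh most, ranged from -0.73 in wt cage 2 to 0.58 in wt cage 3. Hspb1 had the signs of the smooth muscle markers in every pool but was highest in another pool.

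The genes whose values followed the inducible chaperones most closely were sought among 5681 genes outside the 10, with a mean and an SD at or above the medians of all. The values were not scaled, so Hspa1a and Hspa1b weighed most in the profile. Their SDs over the pools were 0.86 and 0.69, against 0.28 for Dnajb1 and 0.30 for Hsph1 (brightest probe sets). The mean centred profile of Hspa1a, Hspa1b, Dnajb1 and Hsph1 was -0.44, -0.73 and 0.58 in wt and -0.10, 0.48 and 0.20 in duoxa-/-, in cages 1, 2 and 3. Swi5, a recombination factor, had r = 0.990 with it over the 6 pools, followed by Rpf1, Abcf1, Tomm22, Stau2, Eif4e2, Rbm25, Med27, Dnaja1 and Naa16, down to 0.973. Their values ranged over the pools by 0.32 to 0.75, less than the 1.83 to 2.34 of Hspa1a and Hspa1b. Dnaja1 was the only listed HSF1 target among these 10 genes. The profile of Hspd1 and Hspe1 was followed by Tyw5 (r = 0.998), Tmem70, Exosc1, Itpa, Rpp30, Alyref, Thoc3, Mrpl40, Phf10 and Rpl7l1 (0.991). With 6 pools and so many candidates these values describe likeness, and no test was made.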

How the data were processed

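Total RNA was labelled with biotin and hybridised to 1 single-colour Affymetrix array per pool, per the labels' protocols. The deposited values are log2 probe set values that the authors made with RMA in affy, per the submitters' processing notes; versions and settings were not given in the sources used here. RMA equalises the arrays and compresses differences of dim probe sets. Of 45101 probe sets, 64 controls were left out.

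Differences are duoxa-/- minus wt. All 45037 probe sets were fitted with limma 3.58.1 in R 4.3.3 (lmFit, eBayes; two-sided, Benjamini-Hochberg, threshold 0.05) without a cage term. Every adjusted p is limma's. The series design makes a cage a litter, which pairs its pools. After subtracting group means, paired pools correlated across probe sets with r of -0.15, 0.069 and 0.29 in cages 1, 2 and 3. For wt and duoxa-/- pools of different cages r was -0.38 to 0.38, a range that holds the paired values. Cages were compared by limma's F-test with genotype in the fit. The procedure was tested on simulated data.

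All probe sets of the 10 genes are named, and, of each list, up to 3 genes with the smallest p (brightest probe set). Des, Egr2 and Btg2 were chosen after their values were seen. Members and lists were chosen with earlier results of these data known. A probe set is called dim when its mean is under 6.58. Alternatives were other scalings, limma settings and probe set rules, and left-out pools.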

Additional observations from a re-analysis of the deposited data

How the results depend on the processing

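None of the 22 heat shock probe sets was called between genotypes or between cages under any alternative run, and cage as a replicate block changed no call (0 probe sets, smallest limma adjusted p 0.740). Over all probe sets, leaving out 1 pool gave 0 to 1 call between genotypes (1 without the wt pool of cage 3). Calls between cages were 1 to 16 when 1 pool was left out, 2 with 1 probe set per gene, 0 with the mean of a gene's probe sets or without cross-hybridising probe sets, 3 with median centring or array weights and 9 with a variance trend and robust fit; the cause was not tested. Higher values in all 3 cages were found for 1 of 9 genes (Hspd1) with 1 probe set per gene, against 13.5% of all genes. With the mean of a gene's probe sets there were 3. Both settings have fewer units by construction.

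Directions turned, all without a call, for values near 0 or resting on 1 cage. Without both pools of cage 2, Hspa1a was -0.054, the Hspa1b probe sets -0.10 (1452318_a_at), -0.22 (1427126_at) and -0.23 (1427127_x_at), Dnajb1 -0.038 (1416755_at) and -0.14 (1416756_at), and Hsp90aa1 1433251_at -0.0056. Without both pools of cage 1, Hspb1 was 0.34 (1425964_x_at) and 0.27 (1422943_a_at), and without cage 3 1425964_x_at was 0.041. With array weights, Dnajb1 1416756_at was -0.033 and Hsp90aa1 1433251_at -0.0020. Leaving out 1 pool gave -0.26 to 0.22 for Hspb1 1425964_x_at, -0.33 to 0.13 for 1422943_a_at, -0.085 to 0.16 for Dnajb1 1416756_at and -0.013 to 0.059 for Hsp90aa1 1433251_at. Dim probe sets and 3 pools a group limit what differences could be seen.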
